A study of Mus musculus with 11 samples.

Results

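This account covers 10 chemokine genes, Ccl2, Ccl5, Ccl7, Ccl20, Cxcl1, Cxcl5, Cxcl10, Cxcl12, Cx3cl1 and Ppbp, chosen by name as ligands of the chemokine family. Of the 15022 genes in the count table, 9 of the 10 had a row, matched by Ensembl identifier to mouse symbols, and all 9 were among the 13040 genes tested. Cxcl1 was not analysed here. The cells were NIH-3T3, a mouse embryonic fibroblast line of wild-type genotype. They received AS1411, a guanine-rich DNA aptamer known to bind nucleolin, or a control DNA oligonucleotide, each at 10 µM, and polyadenylated RNA was sequenced after 24 h (3 AS1411 and 3 control libraries) or 48 h (2 AS1411 and 3 control libraries). No untreated cells are among the 11 libraries, so every comparison is with cells that also received an oligonucleotide. Nothing in the labels says that libraries of a group came from separate cultures, so p-values measure only the spread between these libraries, which may be technical.

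Both oligonucleotides are shown because the whole contrast rests on them. They have the same length of 26 bases, and the control replaces each of the 17 guanines of AS1411 with cytosine while keeping the 9 thymines. Guanines are in capitals.
AS1411: GGtGGtGGtGGttGtGGtGGtGGtGG
control: cctcctcctccttctcctcctcctcc

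Chemokines are small secreted proteins that guide leukocytes along concentration gradients by binding G-protein-coupled receptors, and they are grouped as CC, CXC or CX3C by the spacing of their first cysteines. Fibroblasts make several of them: some, such as Cxcl12, are produced constantly, while others, such as Ccl2 and Cxcl10, are induced through NF-kB or interferon signalling. Many induced chemokine mRNAs are short-lived and carry AU-rich elements in the 3′ untranslated region (UTR), which decay factors recognise.

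Library totals ran from 13541951 to 18784497 counts, so that 1 count was worth 0.0526 to 0.0734 CPM (counts scaled to a common library size, with TMM factors). The 48 h control libraries were uneven: replicate 2 differed from replicates 1 and 3 by a chi-square of 8.39 and 11.2 per gene, where replicates 1 and 3 differed by 4.43. Results that moved without replicate 2 are given with that value as well. Of 12 fibroblast markers, 9 had a row, and Thy1, Fap and Postn had none. Their sum was 4840 to 5450 CPM in the AS1411 libraries and 7480 to 8870 CPM in the control libraries at 48 h. Of 12 leukocyte markers, 4 had a row, and Ptprc, Itgam, Adgre1, Lyz2, Cd3e, Laptm5 and Tyrobp were among those with none. The leukocyte sum was 25.5 to 26.6 CPM with AS1411 and 10.0 to 10.7 CPM with control oligonucleotide at 48 h, so it moved with the chemokines that rose, and its part in their change was not tested. In bulk RNA, fewer cells of a type and less RNA per cell cannot be told apart.

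At 48 h, 5 of the 9 tested chemokine genes were higher with AS1411 and 3 were lower (edgeR quasi-likelihood test, Benjamini-Hochberg adjusted p under 0.05 over all genes). Ccl2, Ccl5, Ccl7, Ccl20 and Cxcl10 were higher, Cxcl5, Cxcl12 and Ppbp were lower, and Cx3cl1 was not called. Below, rose and fell mean higher and lower with AS1411 than with control at the same time, unless a change with time is named. These counts stand against a background in which 29.4% of all tested genes were called higher and 28.5% lower, and the counts were also 5 and 3 without control replicate 2 at 48 h. Scaling by library size alone called 5428 genes of all tested higher and 2372 lower at 48 h, moved their median log2 fold change to 0.16, and again called 5 and 3 chemokine genes. The median log2 fold change of the 9 genes was 1.11, against 0.01 over all genes tested. Ccl20 passed the filter on low counts only through the AS1411 libraries at 48 h, and Cxcl5 only through the control libraries at 48 h, so that both had to differ. Among the other 7 genes, 4 were higher and 2 were lower. With Ccl20 and Cxcl5 counted, 4 of the 4 CC ligands were higher and 3 of the 4 CXC ligands, Ppbp included, were lower. A difference between the classes was not tested.

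**Figure D1:**
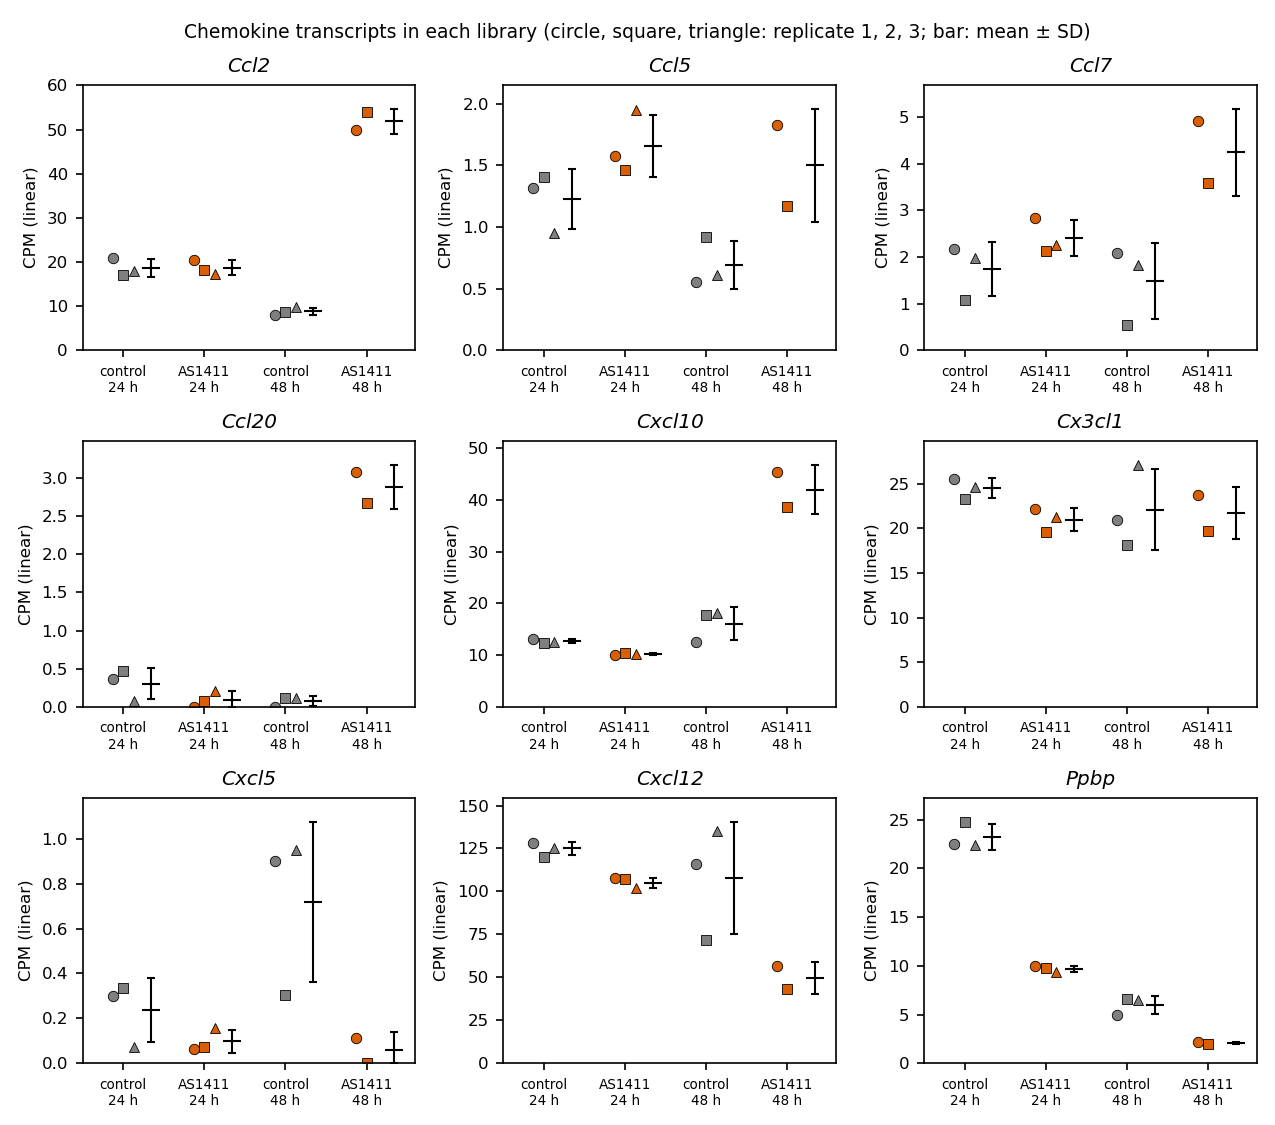
Level of each chemokine transcript in every library, in CPM on linear axes from 0, with the group mean ± SD beside the points (control grey, AS1411 orange). At 48 h both AS1411 libraries lay above all 3 control libraries for Ccl2, Ccl5, Ccl7, Ccl20 and Cxcl10 and below them for Cxcl5, Cxcl12 and Ppbp. The filter kept Ccl20 and Cxcl5 only through the higher 48 h group. The share of all genes whose libraries separate was not computed, so separation, here and by gene below, is a description only.

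At 24 h the picture was different: 0 of the 9 genes were called higher, against 13.1% of all genes, and 1, Ppbp, was lower, against 16.7% of all genes. At an unadjusted p under 0.05, 0 were higher and 2 were lower, and DESeq2 called 0 higher and 1 lower. Fitting only the 24 h libraries called 4 genes lower, as given with each gene. That fit also called more of all genes, with 2719 higher against 1702 in the fit of all libraries. The share of all genes lower in that fit, or at an unadjusted p, is not given here. These counts are therefore not read as a result about the chemokine genes. The difference between the effects at 48 h and 24 h was called for 3 of the 9 genes, Ccl2, Ccl20 (whose direction the filter favoured) and Cxcl10, all more positive at 48 h, where 13.4% of all genes were called in that direction (1749 of them, and 2305 with scaling by library size alone). None of the 9 was called in the other direction by edgeR, against 14.1% of all genes (1845, and 1192 with scaling by library size alone). There, 1 passed at an unadjusted p under 0.05, and DESeq2 called 1, Cxcl12, at -0.88.

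**Figure D2:**
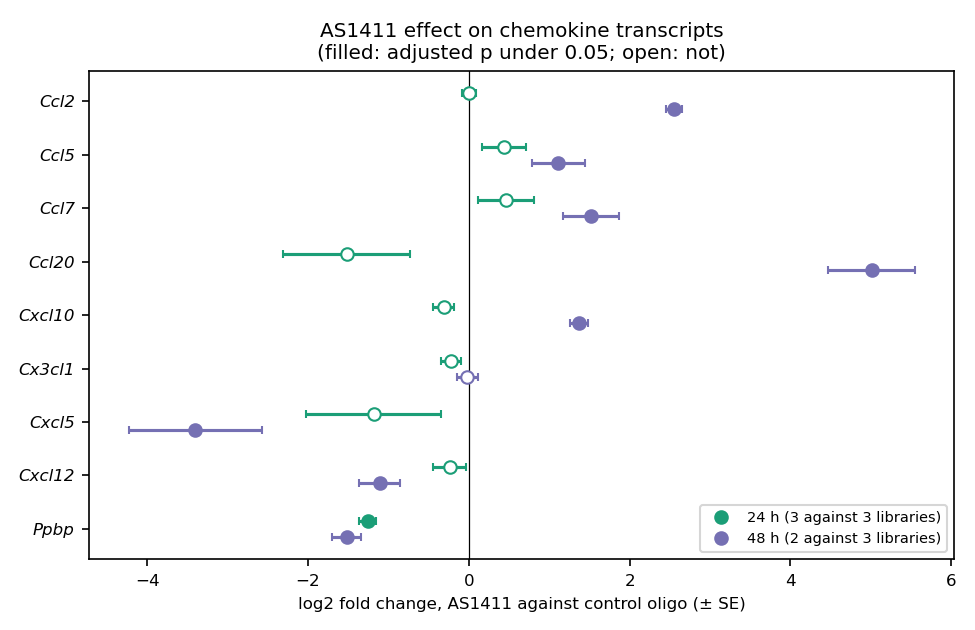
Log2 fold change of AS1411 against control oligonucleotide for each gene at 24 h and 48 h, with bars of ± 1 SE from the edgeR fit. Filled points passed an adjusted p of 0.05. Only Ppbp is filled at 24 h, and all but Cx3cl1 are filled at 48 h.

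Ccl2, the main monocyte chemoattractant and ligand of Ccr2, rose at 48 h and not at 24 h. Its 48 h level was 49.9 and 53.9 CPM in the AS1411 libraries and 8.03, 8.69 and 9.71 CPM in the control libraries. The AS1411 libraries were far above every control library, with means of 51.9 ± 2.83 (SD, n = 2) and 8.81 ± 0.848 CPM (SD, n = 3). The log2 fold change was 2.55 ± 0.10 (SE, adjusted p = 1.14e-12), a 5.86-fold difference. At 24 h the libraries overlapped, at 20.5, 18.3 and 17.2 CPM with AS1411 and 20.8, 17.1 and 17.9 CPM with control. The 24 h difference was 0.00 ± 0.09, with a 95% interval of -0.20 to 0.20. The effect was thus larger at 48 h by 2.55 ± 0.14 (adjusted p = 4.39e-10). The change came from both arms, since Ccl2 fell with time under the control oligonucleotide (-1.07 ± 0.11, adjusted p = 7.37e-07) and rose under AS1411 (1.48 ± 0.09, adjusted p = 7.56e-10).

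Ccl7, a monocyte chemoattractant closely related to Ccl2, lies beside it on chromosome 11 and rose less. At 48 h it was 4.91 and 3.59 CPM with AS1411 and 2.08, 0.551 and 1.84 CPM with control. No control library reached the AS1411 libraries, and the lowest control value came from replicate 2. The log2 fold change was 1.52 ± 0.35 (adjusted p = 0.00172), and 1.14 without that library. At 24 h it was 2.84, 2.12 and 2.26 CPM against 2.17, 1.07 and 1.98 CPM, groups that overlapped, with a log2 fold change of 0.46 ± 0.35. The difference between the times, 1.06 ± 0.50, was not called (adjusted p = 0.13).

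Ccl5, which attracts T cells and monocytes, was low in every library. At 48 h it was 1.83 and 1.17 CPM with AS1411 and 0.554, 0.918 and 0.614 CPM with control. The lower AS1411 library was only just above the highest control library. The log2 fold change of 1.11 ± 0.33 passed the test (adjusted p = 0.00791) but did not pass without AS1411 replicate 1, where it was 0.73 (adjusted p = 0.18). At 24 h all 3 AS1411 libraries (1.58, 1.46 and 1.95 CPM) were above all 3 controls (1.32, 1.41 and 0.954 CPM), at 0.44 ± 0.27, which was not called (adjusted p = 0.238).

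Ccl20, the ligand of Ccr6, was scarcely detected outside the AS1411 libraries at 48 h. Those held 54 and 41 counts (3.08 and 2.67 CPM), while the 48 h controls held 0, 2 and 2. At 24 h it had 0, 1 and 4 counts with AS1411 and 6, 7 and 1 with control. The ratio of depth-scaled counts at 48 h was 35.2, with an exact 95% interval of 13.3 to 132 that, like all such intervals here, covers counting error only. The fitted log2 fold change was 5.01 ± 0.54 at 48 h (adjusted p = 2.63e-07) and -1.52 ± 0.79 at 24 h (adjusted p = 0.163). The difference between the effects was 6.53 ± 1.03 (adjusted p = 0.000134), a direction favoured by the filter, which Ccl20 passed only through the AS1411 libraries at 48 h.

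Cxcl10, an interferon-induced ligand of Cxcr3 that attracts activated T cells, was the one CXC gene that rose. At 48 h it was 45.4 and 38.7 CPM with AS1411 and 12.5, 17.8 and 18.1 CPM with control. Both AS1411 libraries were above every control, and the log2 fold change was 1.37 ± 0.11 (adjusted p = 1.86e-08). At 24 h the order was opposite: 10.0, 10.4 and 10.3 CPM with AS1411 against 13.1, 12.4 and 12.5 CPM with control. These groups did not overlap either, but the 24 h value of -0.31 ± 0.13 was not called (adjusted p = 0.0766). It was called when the 24 h libraries were fitted alone (-0.30, adjusted p = 0.00815). The change of effect between the times was 1.69 ± 0.17 (adjusted p = 1.88e-06). An exon of Art3 on the opposite strand overlaps 133 bases of Cxcl10, and whether the counting used strand is not given in the sources used here, so reads in that stretch could belong to either gene.

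Cxcl12 is the constitutive stromal ligand of Cxcr4 and Ackr3. Its mean CPM was the highest of the 9 genes in every group but AS1411 at 48 h. There it was 56.4 and 43.2 CPM, against 116, 71.7 and 135 CPM in the controls. The groups did not overlap, though control replicate 2 was well below the other controls. The log2 fold change was -1.11 ± 0.26 (adjusted p = 0.00696), and -1.33 without control replicate 2. Without AS1411 replicate 2 it was -0.94 and was no longer called (adjusted p = 0.0518). At 24 h the values were 108, 107 and 102 CPM with AS1411 and 128, 120 and 125 CPM with control. Each AS1411 library was below each control at 24 h, yet the value of -0.24 ± 0.21 was not called in the fit of all libraries (adjusted p = 0.442). In the fit of the 24 h libraries alone it was called (-0.23, adjusted p = 2.18e-06). Its effect did not pass the test of a difference between the times (-0.87 ± 0.33, adjusted p = 0.0954).

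Ppbp encodes a ligand of Cxcr2 best known from platelet granules, which is cut to a neutrophil-activating peptide. Here it was the one gene of the 9 called lower with AS1411 at both times. At 24 h it was 9.98, 9.79 and 9.36 CPM with AS1411 and 22.5, 24.8 and 22.4 CPM with control. At 48 h the values were 2.17 and 2.02 CPM against 4.91, 6.55 and 6.47 CPM. The groups were far apart at both times, at -1.26 ± 0.10 (adjusted p = 1.56e-07) and -1.52 ± 0.18 (adjusted p = 7.61e-07). The effects differed by -0.26 ± 0.21, which was not called (adjusted p = 0.392). Ppbp also fell with time, by 1.95 on the log2 scale under the control oligonucleotide and by 2.20 under AS1411. Of 12 platelet markers, 4 had a row, and Pf4, Gp9, Gp6 and Gata1 were among those with none. Their sum was 5.15 to 7.19 CPM with AS1411 and 2.70 to 4.35 CPM with control at 48 h, the opposite direction to Ppbp.

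Cxcl5, another neutrophil chemoattractant and the neighbour of Ppbp, was counted in single reads. The 48 h controls held 13, 5 and 17 counts, and the AS1411 libraries held 2 and 0. The AS1411 libraries were below all controls, and the ratio of depth-scaled counts was 0.0847, with an exact 95% interval of 0.00987 to 0.33. The fitted log2 fold change of -3.40 ± 0.83 (adjusted p = 0.00184) ranged from -6.52 to -2.58 over the alternatives, as so few counts allow. At 24 h there were 1, 1 and 3 counts with AS1411 and 5, 5 and 1 with control, which was not called (-1.18 ± 0.84, adjusted p = 0.316).

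Cx3cl1, the membrane-anchored ligand of Cx3cr1, was well measured and was not called at either time. At 48 h it was 23.8 and 19.7 CPM with AS1411 and 20.9, 18.2 and 27.1 CPM with control, groups that overlapped. The difference was -0.02 ± 0.13, with a 95% interval of -0.31 to 0.27. At 24 h each AS1411 library (22.2, 19.6 and 21.3 CPM) was below each control (25.6, 23.3 and 24.6 CPM), by -0.22 ± 0.12 (adjusted p = 0.20). In the fit of the 24 h libraries alone that value was -0.20 and was called (adjusted p = 0.0176).

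The rank of the transcripts changed with these shifts. Per kilobase of exon, counted over all annotated exons of a gene, the 48 h control cells held most Cxcl12 (13.2 CPM per kb), then Ccl2 (7.74), Cxcl10 (7.15), Cx3cl1 (5.62) and Ppbp (5.52). The AS1411 cells at 48 h instead held most Ccl2 (45.6 CPM per kb), then Cxcl10 (18.7), Cxcl12 (6.09), Cx3cl1 (5.52) and Ccl7 (5.31). Neighbours with such close values, as Ccl2 and Cxcl10 in the controls or Cx3cl1 and Ccl7 with AS1411, were within the spread between libraries. At 24 h under the control oligonucleotide Ppbp led (21.4 CPM per kb), followed by Ccl2 (16.3) and Cxcl12 (15.3). Ccl20 and Cxcl5 were last in both 24 h groups. These ranks depend on the length used, which was 8176 bases for Cxcl12, 1138 for Ccl2 and 1083 for Ppbp. By CPM without length, Cxcl12 led the 24 h controls at a mean of 125, against 23.2 for Ppbp. With AS1411 at 48 h its mean was 49.8 CPM, against 51.9 for Ccl2. Replicate 1 held more Cxcl12 (56.4 against 49.9 CPM) and replicate 2 more Ccl2 (53.9 against 43.2 CPM), so their order differed between the libraries.

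Over time, 2 of the 9 genes were called higher and 2 lower at 48 h than at 24 h in the control cells, against 11.6% and 13.2% of all genes. Ccl2 and Ppbp fell, while Cxcl10 (0.35 ± 0.12, adjusted p = 0.0385) and Cxcl5 (1.53 ± 0.55, adjusted p = 0.0494) rose by margins that 11 of 20 and 8 of 15 alternatives removed. Cxcl5 passed the filter only through the control libraries at 48 h, which favoured its rise, so its call adds nothing to the count. Without control replicate 2 at 48 h the counts were 1 higher and 3 lower. With AS1411, 4 genes were higher at 48 h, against 24.5% of all genes, and 2 were lower, against 24.6%. The 4 were Ccl2, Ccl20 (4.71 ± 0.52), Cxcl10 (2.04 ± 0.12) and Ccl7 (0.82 ± 0.32, adjusted p = 0.0472, not called in 10 of 20 alternatives). Ccl20 passed the filter only through the AS1411 libraries at 48 h, which favoured its rise, so its call adds nothing to the count. The 2 were Ppbp and Cxcl12 (-1.07 ± 0.26, adjusted p = 0.01). The time comparisons and the treatment comparisons share libraries and are not independent of each other.

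**Figure D3:**
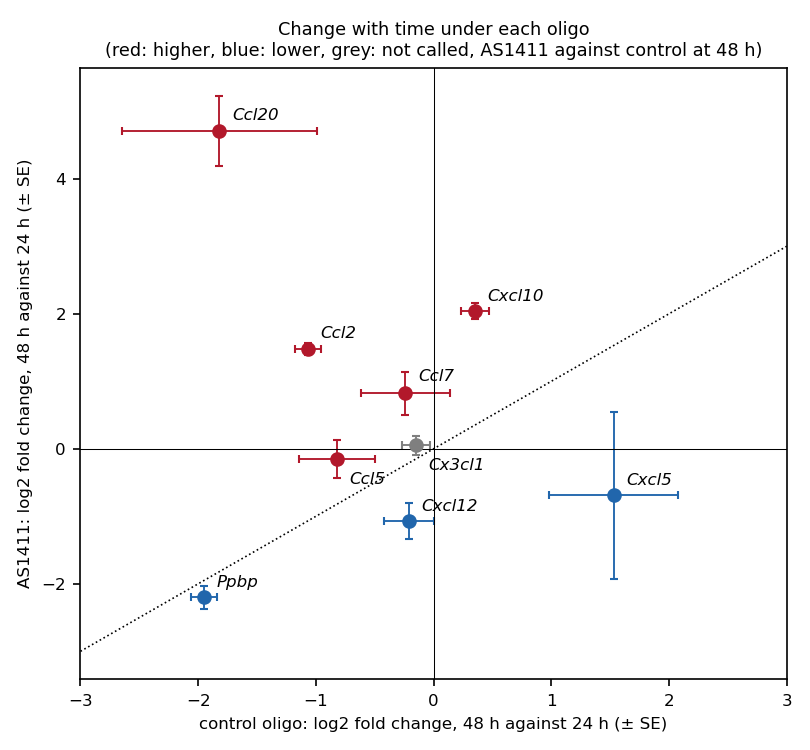
Log2 change from 24 h to 48 h under control oligonucleotide (horizontal axis) and under AS1411 (vertical axis), with bars of ± 1 SE; the dotted line marks equal change, and colour marks the call at 48 h. Ccl2 lies at -1.07 and 1.48, above the line, while Ppbp lies close to it at -1.95 and -2.20.

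The neighbouring pairs described here had the same call at 48 h, where 29.4% of all tested genes were called higher and 28.5% lower. Positions are on GRCm38 from GENCODE M21. Ccl2 (chr11:82035571-82037453, plus strand) and Ccl7 (chr11:82045712-82047525, plus strand) are 8.3 kb apart and both rose. Ccl5 (chr11:83525778-83530518, minus strand) lies 42.4 kb from Ccl9, another CC ligand, and both rose, Ccl5 on few counts. Cxcl5 (chr5:90759360-90761624, plus strand) and Ppbp (chr5:90768518-90770063, plus strand) are 6.9 kb apart and both fell. Cxcl5 passed the filter only through the control libraries at 48 h, so it had to differ and the pair says nothing on position. Cxcl10 (chr5:92346638-92348889, minus strand) lies in a separate cluster of chromosome 5 and rose. Ccl20 (chr1:83116766-83119167), Cxcl12 (chr6:117168535-117181367) and Cx3cl1 (chr8:94772009-94782427) are all on the plus strand. Cx3cl1 lies between Ccl22 and Ccl17, which were not analysed here. With so few pairs, no test of position was made.

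**Figure D4:**
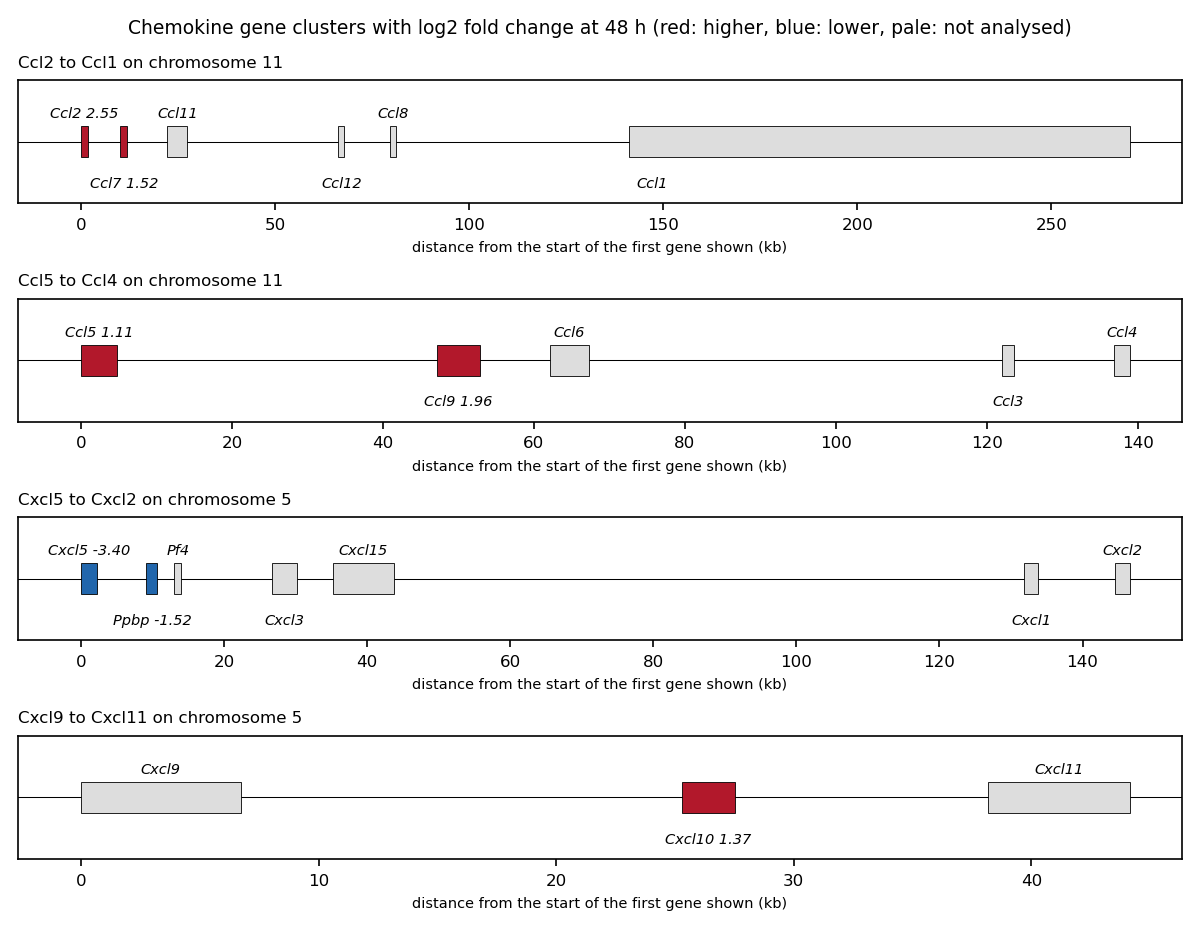
Genes of 4 chemokine clusters drawn to scale, with distance in kb from the start of the first gene shown, and the log2 fold change at 48 h beside each tested gene (red higher, blue lower, pale not analysed here). Ccl2 and Ccl7 are red neighbours, and Cxcl5 and Ppbp are blue neighbours, where Cxcl5 passed the filter only through the control libraries at 48 h.

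Of the 9 genes, 5 have an entry in the RefSeq promoter table (GRCm38.p6). The 250 bases before the start site are shown for 2 genes that rose and 2 that fell, as a description of motif content. Those that rose are Ccl20 (chr1:83116516-83116765, plus strand) and Cxcl10 (chr5:92348890-92349139, minus strand). Those that fell are Cxcl12 (chr6:117168285-117168534, plus strand) and Ppbp (chr5:90768268-90768517, plus strand). Ccl20 passed the filter only through the AS1411 libraries at 48 h, which favoured its direction, so no difference between the directions is read from these windows. Capitals mark matches to the kappaB consensus of NF-kB, the interferon response core GAAANNGAA and the AP-1 site TGANTCA, each searched on both strands, and to TATAAA on the printed strand.
Ccl20: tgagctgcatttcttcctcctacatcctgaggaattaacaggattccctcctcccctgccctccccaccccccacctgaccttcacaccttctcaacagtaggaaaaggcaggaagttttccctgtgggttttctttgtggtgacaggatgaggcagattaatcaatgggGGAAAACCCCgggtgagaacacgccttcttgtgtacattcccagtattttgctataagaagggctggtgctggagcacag
Cxcl10: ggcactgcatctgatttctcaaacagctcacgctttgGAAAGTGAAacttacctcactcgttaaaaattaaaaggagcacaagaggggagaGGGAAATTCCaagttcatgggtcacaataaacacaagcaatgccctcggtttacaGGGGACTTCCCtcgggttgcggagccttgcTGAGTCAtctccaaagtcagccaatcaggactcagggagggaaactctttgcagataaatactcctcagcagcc
Cxcl12: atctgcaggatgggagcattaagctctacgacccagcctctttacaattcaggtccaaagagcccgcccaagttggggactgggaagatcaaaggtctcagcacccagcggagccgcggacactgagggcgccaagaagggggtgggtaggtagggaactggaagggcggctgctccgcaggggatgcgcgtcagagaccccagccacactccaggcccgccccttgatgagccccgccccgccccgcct
Ppbp: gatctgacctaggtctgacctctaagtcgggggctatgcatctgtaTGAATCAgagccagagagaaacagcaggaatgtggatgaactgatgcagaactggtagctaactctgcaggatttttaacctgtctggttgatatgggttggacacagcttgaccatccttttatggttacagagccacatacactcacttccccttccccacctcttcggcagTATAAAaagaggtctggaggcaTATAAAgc

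The Cxcl10 window held kappaB matches at -159 to -150 and, overlapping on both strands, at -104 to -94 from the start site. It also held the interferon response core at -213 to -205 and an AP-1 match at -74 to -68, which counts on both strands because the searched pattern TGANTCA is its own reverse complement. The Ccl20 window held 1 kappaB match, at -80 to -71 on the other strand. The Ppbp window held an AP-1 match at -204 to -198 and TATAAA at -30 to -25 and at -8 to -3, and no kappaB match. None of the 4 motifs matched in the Cxcl12 window, whose base content was 64.4% G and C against 48.0% for Cxcl10. Among 32851 mouse promoters of the same length, 7.25% held a kappaB match, 7.13% the interferon core, 6.75% the AP-1 site and 7.59% TATAAA. These matches describe the letters of the windows and were not tested for occupancy.

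Copies of the AU-rich pentamer ATTTA in the 3′ UTR were counted on the longest coding transcript of each gene in GENCODE M21. Ccl20 held 9 copies in 1050 bases, or 8.57 per kb, a density above that of 98.9% of 12009 genes with a 3′ UTR. The other genes that rose ranged from 4.60 per kb in Ccl7 and 3.64 in Ccl2 to 3.01 in Cxcl10 and 0 in the 199 bases of Ccl5. Among genes that fell, Cxcl5 had 4.50 per kb, Ppbp 1.52 and Cxcl12 0.771, and Cx3cl1 had 0.534. The median gene had 1.36 per kb. Density thus differed within both directions, and its relation to the change was not tested. Ccl20 and Cxcl5 passed the filter only through the 48 h group where each was higher, which favoured their directions. A stretch of 30 bases with the most pentamers in the 3′ UTR is shown for Ccl2 (chr11:82037205-82037234), Ccl7 (chr11:82047254-82047283) and Ccl20 (chr1:83119059-83119088), all on the plus strand, and for Cxcl12 (chr6:117180402-117180431, plus strand). The stretches do not show density: that of Cxcl12 holds 2 of the 4 copies in its 5188 bases. Pentamers are in capitals.
Ccl2: taatattaaacttATTTAacttattgatgt
Ccl7: tattaatatttttATTTAattagccatgta
Ccl20: aagatATTTAatgttctgtttATTTAattg
Cxcl12: atccgaATTTAaataggacATTTAcatcgg

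Of 32 other chemokine ligands listed, 6 had a row and 3 were tested. At 48 h 2 were higher and 1 lower, against 29.4% and 28.5% of all genes, and so few tested genes allow no reading of the count. Ccl9, a monocyte-attracting CC ligand of the mouse, was 5.36 and 4.24 CPM with AS1411 and 1.25, 1.35 and 1.12 CPM with control at 48 h, a difference of 1.96 ± 0.22 (adjusted p = 4.49e-07). Its 24 h value was -0.42 ± 0.22 (adjusted p = 0.173) and, like Ccl2, it fell with time in control cells (-0.77 ± 0.23, adjusted p = 0.0224). Ccl25 was higher by 0.42 ± 0.16 (adjusted p = 0.0332), and Mif, a cytokine with chemokine-like activity, was lower (-0.33 ± 0.05, adjusted p = 3.76e-05). Ccl27a, Ccl28 and Cxcl16 did not pass the filter, with at most 10 counts in any library. Of 25 receptors listed, 6 had a row and 3 were tested. Ackr3, which removes Cxcl12 from the surroundings, fell, as did that ligand at 48 h. It was 7.82 and 6.59 CPM with AS1411 and 14.8, 11.6 and 12.8 CPM with control at 48 h (-0.85 ± 0.15, adjusted p = 9.32e-05), and was also lower at 24 h (-0.74 ± 0.15, adjusted p = 0.000931). Cxcr4, the signalling receptor of Cxcl12, had 2 to 13 counts in any library and was not tested. Cd74, a receptor of Mif, was called higher (1.54 ± 0.57, adjusted p = 0.0281) on 11 and 11 counts against 2, 1 and 8. It passed the filter only through the AS1411 libraries at 48 h, so it too had to differ. Ccr10 was not called (-0.30 ± 0.47). Ccr7 had 6 and 6 counts with AS1411 at 48 h and 0 to 3 in the other libraries, and Cxcr6 had 7 and 1 against 1 or fewer, and neither was tested.

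The regulators that act on these genes are read against the shares of all tested genes, 29.4% higher and 28.5% lower at 48 h, and 13.1% and 16.7% at 24 h. Of 18 NF-kB subunits and feedback genes, all tested, 14 were higher and 1 lower at 48 h, with a median of 0.50 against 0.01 over all genes, while at 24 h 4 were higher and 3 lower at a median of -0.06, near the shares of all genes. Nfkb2 (1.22 ± 0.05) and Relb (1.36 ± 0.08), subunits of the non-canonical pathway, and the inhibitors Nfkbia (1.28 ± 0.06) and Nfkbie (1.16 ± 0.09) rose at 48 h, with adjusted p-values from 2.17e-12 to 2.32e-09. With time in control cells, 8 of the 18 NF-kB genes were called lower and 0 higher, against 13.2% and 11.6% of all genes. With time in AS1411 cells, 11 were higher and 2 lower, against 24.5% and 24.6% of all genes. Of 17 tested interferon signalling factors, 7 were higher and 5 lower, near the shares of all genes, with a median of -0.09, and 7 and 2 with scaling by library size alone. Irf7 (1.64 ± 0.29) and Irf9 (0.98 ± 0.10), transcription factors of the interferon response, and the receptor chain Ifngr2 (0.97 ± 0.06) rose, and the kinase Jak1 fell (-0.46 ± 0.04). Of 22 tested cytokines and receptors that feed into chemokine expression, 12 were higher and 2 lower, against 29.4% and 28.5% of all genes, with a median of 0.22. The cytokine Lif rose (1.78 ± 0.14), as did Tgfb1 (0.61 ± 0.08) and the macrophage growth factor Csf1 (0.50 ± 0.06), and the shared receptor chain Il6st fell (-0.38 ± 0.05). Between 24 h and 48 h the Csf1 mean went from 536 to 293 CPM under control and from 452 to 415 CPM under AS1411. The Lif mean went from 52.2 to 20.3 CPM under control and from 50.9 to 70.6 CPM under AS1411.

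For genes acting on chemokine mRNA or protein the shares of all genes are again 29.4% higher and 28.5% lower. Of 15 factors of mRNA decay and stability, 5 were higher and 8 lower at 48 h, with a median of -0.20, and 7 and 7 with scaling by library size alone. Zfp36, which promotes the decay of AU-rich mRNAs, rose (1.37 ± 0.10), as did Rc3h2 (0.65 ± 0.07), while the AU-rich element binding proteins Hnrnpd (-0.91 ± 0.05) and Elavl1 (-0.62 ± 0.05), the latter a stabilising factor, fell. Of 15 tested genes of chemokine processing and retention, 3 were higher and 8 lower, against 29.4% and 28.5% of all genes, with a median of -0.25. Adam17, a protease that sheds Cx3cl1, fell (-0.50 ± 0.06), as did Mmp2 (-0.61 ± 0.06), the heparan sulfate carrier Gpc1 (-0.78 ± 0.07) and the heparan sulfate enzyme Ndst1 (-0.58 ± 0.06). Of 9 fibroblast markers, 7 were lower at 48 h, among them Pdgfrb (-1.40 ± 0.19), Col1a2 (-1.25 ± 0.19), Col1a1 (-0.91 ± 0.16) and Vim (-0.46 ± 0.04). All 3 tested leukocyte markers were higher, Cd68 by 1.66 ± 0.16, Coro1a by 1.60 ± 0.21 and Cd14 by 0.91 ± 0.14. Of 2 platelet markers tested, Itga2b was higher (1.01 ± 0.25) and Gp1bb was not called (0.13 ± 0.37). No tested endothelial (Kdr 0.40 ± 0.49, Egfl7 0.02 ± 0.15) or epithelial (Krt19 0.13 ± 0.06) marker was called at 48 h.

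**Figure D5:**
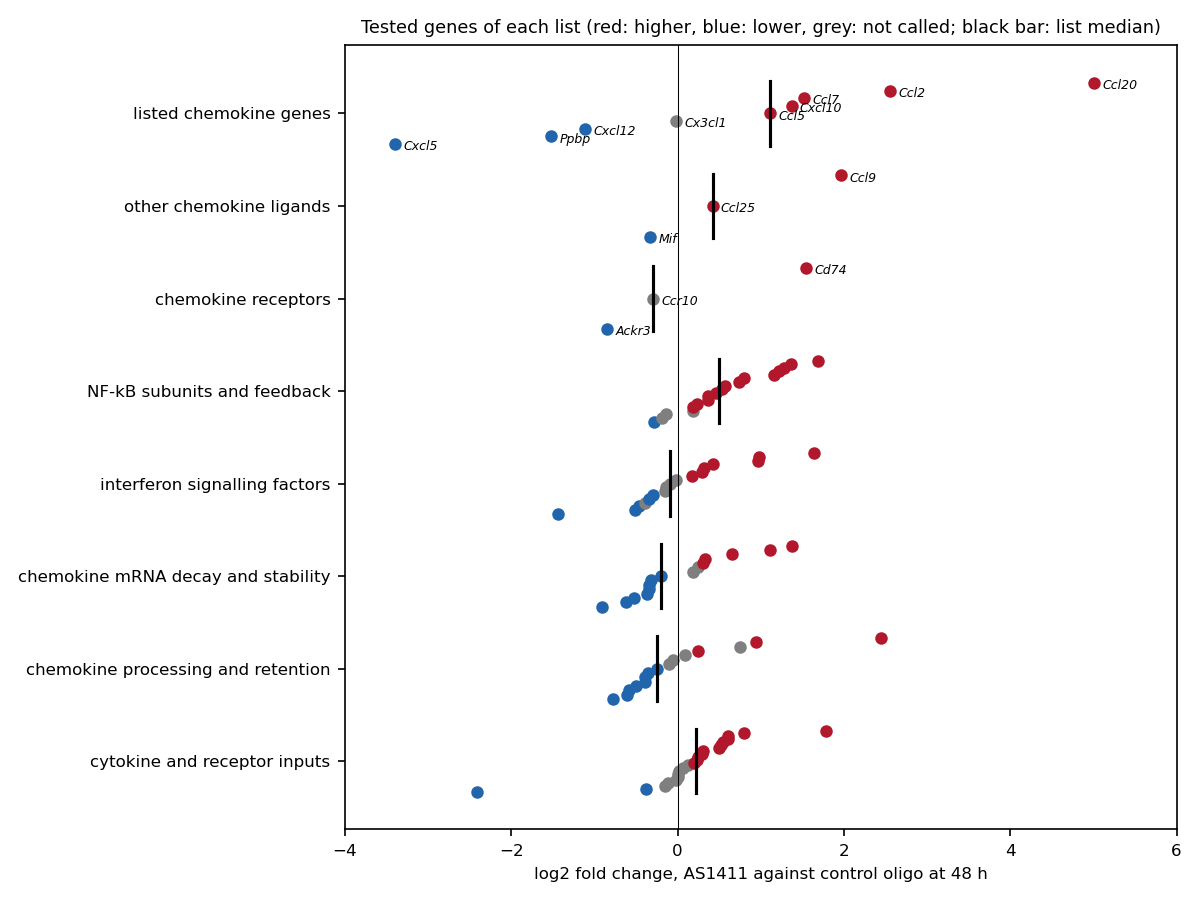
Log2 fold change at 48 h of every tested gene in each list, with chemokine genes and receptors named and a black bar at each list's median (red higher, blue lower, grey not called). The listed chemokine genes run from -3.40 (Cxcl5) to 5.01 (Ccl20), but both of these passed the filter only through the 48 h group where each was higher. The other listed genes run from -1.52 (Ppbp) to 2.55 (Ccl2). Most NF-kB genes lie to the right of 0.

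Among the genes whose profile over the 11 libraries was most like that of Ccl2, measured as the root-mean-square distance of centred log2 CPM, were Ppp1r15a (0.191), Junb (0.203), Pmaip1 (0.246) and Gadd45a (0.255), where the median gene lay at 0.867. For Cxcl12 they were Fbln5 (0.164), Hcfc1r1 (0.169), Ccser1 (0.171), Samd1 (0.18) and P3h2 (0.186), with a median of 0.518. Among the chemokine genes themselves the closest pair was Cx3cl1 and Cxcl12 (0.449), followed by Cx3cl1 and Ccl5 (0.548) and Ccl2 and Ccl7 (0.586). The distance of Cx3cl1 from Cxcl12 was not far below that of the median gene (0.518), so the pair is not read as alike. The most distant pair was Ccl20 and Ppbp (2.36).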

How the data were processed

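The authors deposited a table of raw read counts per Ensembl gene for 11 libraries of polyadenylated RNA, and 14967 identifiers had a mouse symbol while 55 had none. Per the submitters' processing notes the tools were bcl2fastq, cutadapt, STAR, HTSeq and DESeq2, and the build was GRCm38; no source used here gives versions, annotation or strand setting. The lowest gene total in the table was 8 counts, and genes without a row were not analysed here. The authors' normalized table was not used.

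Counts were tested with edgeR 4.0.16 in R 4.3.3 (TMM scaling, filterByExpr, robust quasi-likelihood fit of 4 groups with 7 residual degrees of freedom, Benjamini-Hochberg adjustment over 13040 genes). The filter kept genes with at least 0.637 CPM in 2 libraries. The scripts were tested on simulated data. All measured ligands and receptors are named; every other list is illustrated by up to 4 tested genes with the lowest p-value at 48 h, and the most abundant gene called in each direction by the 5 genes with the closest profile, of which 1 is not reported here. Replicates were compared by a chi-square test of their counts over genes. The members and lists were chosen with earlier results of these data known. Alternatives were other scalings and filters, DESeq2 1.42.0, fitting only the groups compared, a replicate block, an adjusted p of 0.01 and leaving out each library. Same-numbered libraries were not treated as pairs. Exonic lengths and 3′ UTRs are from GENCODE M21, and promoters from RefSeq.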

Additional observations from a re-analysis of the deposited data

Results flagged for a closer look

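The effect of AS1411 differed between 24 h and 48 h, by the test of that difference (edgeR's quasi-likelihood test, adjusted p under 0.05 over all genes), for 3 of the listed chemokine genes. On the log2 scale it was more positive at 48 h by 2.55 for Ccl2, 6.53 for Ccl20 and 1.69 for Cxcl10. Ccl20 passed the filter on low counts only through the AS1411 libraries at 48 h, which favoured its direction, and its value rests on 5 AS1411 and 14 control counts at 24 h and on 4 control counts at 48 h. Among other ligands and receptors the effect differed by 2.38 for Ccl9 and by 2.43 for Cd74, which has few counts and passed the filter only through the AS1411 libraries at 48 h, which favoured its direction.

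The genes named next were chosen by their low p-values at 48 h, a choice that favours a difference between the times, so they are given as a description. Among all 18 NF-kB genes the effect was more positive at 48 h for 12, against 13.4% of all genes, including Nfkb2 (1.32), Relb (1.41), Nfkbia (1.47) and Nfkbie (1.48). The test passed for the interferon factors Irf7 (1.98), Irf9 (0.56), Ifngr2 (0.85) and Jak1 (-0.33), and for the mRNA decay and stability genes Zfp36 (1.02), Rc3h2 (0.77), Elavl1 (-0.22) and Hnrnpd (-0.52). Of 15 tested genes of chemokine processing and retention, the effect was more negative at 48 h for 8 and more positive for 3, against 14.1% and 13.4% of all genes. At 24 h, 6 of these 15 were already lower with AS1411 and 0 higher, against 16.7% and 13.1% of all genes. The effect differed between the times by -0.21 for Adam17, -0.37 for Mmp2, -0.28 for Gpc1 and -0.54 for Ndst1. The cytokine inputs differed by 1.82 for Lif, 0.75 for Csf1, 0.48 for Tgfb1 and -0.34 for Il6st.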

How the results depend on the processing

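Over all single-gene results and alternatives, 1468 values kept their direction and side of the threshold, 50 lost a call, 30 gained one and 11 changed sign. The calls of Ccl2, Ccl7, Ccl20, Cxcl10 and Ppbp at 48 h held in each of 21 alternatives, from 1.14 to 1.80 for Ccl7, 4.54 to 5.38 for Ccl20 and 2.49 to 2.70 for Ccl2. No value that changed sign had been called. Cx3cl1 at 48 h became 0.12 with scaling by library size alone, 0.03 with upper quartile scaling, 0.09 without AS1411 replicate 2 and 0.16 without control replicate 3, in a range of -0.18 to 0.16 with a library left out. With a library left out, time changes under AS1411 ran from -0.11 to 0.17 for Cx3cl1, from -0.52 to 0.11 for Ccl5 and from -3.81 to 0.13 for Cxcl5, the positive values of Ccl5 and Cxcl5 being those without AS1411 replicate 2 at 48 h. Those under control ran from -0.51 to 0.16 for Ccl7 and from -0.40 to 0.02 for Cxcl12, the positive values being those without control replicate 2 at 48 h. The cause was not tested.

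Counts of chemokine genes moved as follows. The 1 lower at 24 h became 4 when only the groups compared were fitted, and 1 to 3 with a library left out. The 0 with a more negative effect at 48 h became 1 with DESeq2 and 0 to 1 with a library left out. The 2 higher with time under control became 1 with no filter, with the CPM filter and with DESeq2, 0 with only the groups compared, 0 at an adjusted p of 0.01, and 0 to 2 with a library left out. The 2 lower with time under AS1411 became 1 at an adjusted p of 0.01, and 1 to 2 with a library left out.

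Same-numbered libraries did not deviate together at 24 h (correlations of -0.03, 0.00 and -0.05). At 48 h they gave 0.12 and 0.21, but AS1411 replicate 1 with control replicate 3 also gave 0.12. With so few AS1411 libraries at 48 h, their deviations mirror each other, so these values are not independent. The numbers are not taken as pairs. A replicate block within each time called 3 chemokine genes lower at 24 h, 5 with a more positive and 1 with a more negative effect at 48 h, and gave 0.15 for Cx3cl1 at 48 h. The shares of all genes under that block are not given here, so its counts are a description only. A block of the number over all libraries called 1 gene higher with time under control and gave 0.04 for Cx3cl1 at 48 h.

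Over all genes, the 1702 higher at 24 h became 2884 with scaling by library size alone, 2719 with only the 24 h groups, 1122 without AS1411 replicate 1 and 898 at an adjusted p of 0.01, while the 2176 lower became 1201 and 1403 with library size and at 0.01. The 3713 lower at 48 h became 2372 and the 3206 lower with time under AS1411 became 2050 with library size. At 0.01 the 1749 and 1845 that differed between the times became 966 and 1040, and the 1513 and 1723 that changed under control became 830 and 1033. The 3 NF-kB genes lower at 24 h became 1 with library size and 5 with only the 24 h groups. Cxcl5 was not tested under the CPM filter, and DESeq2 gave no adjusted p for the difference between times of Ccl20 and Cxcl5. Depth limits Ccl20, Cxcl5, Ccl5 and Cd74, which rest on few counts.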
